A study of Homo sapiens and Homo sapiens
Mus musculus and Mus musculus with 200 samples.

Results

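The 7 genes described here encode the E-proteins TCF3, TCF4 and TCF12 and the inhibitors of DNA binding ID1, ID2, ID3 and ID4. Their regulatory surroundings were taken as every ATAC-seq region and every ChIP-seq peak within 100 kb of any GENCODE transcript start of a gene. That rule gave 266 of the 213151 ATAC-seq regions of the H3K27ac tables, and 3472 of the 1977658 peaks summed over 70 peak lists. TCF4 had 73 regions, TCF12 57, ID3 44, ID1 29, ID2 28, TCF3 23 and ID4 12. No region fell near more than 1 of the genes, and for 115 of the 266 the gene's own transcript start was the nearest of any gene. A region near a gene is named after it below as a position and not as a target assignment.

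E-proteins are broadly expressed basic helix-loop-helix (bHLH) factors. They pair with tissue-restricted bHLH factors such as TWIST1, and the pair binds the short DNA motif called the E-box. ID proteins keep the helix-loop-helix that forms the pair but lack the basic stretch that contacts DNA, so an E-protein held by an ID protein cannot bind. ID genes are known as targets of BMP signalling, and TWIST1 is required for the mesenchyme that the cranial neural crest forms. TCF4 here is the E-protein gene also called E2-2, not the Wnt effector TCF7L2.

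H3K27ac, a histone mark of active promoters and enhancers, was measured by ChIP-seq in human cranial neural crest cells (hCNCC) differentiated from the embryonic stem cell line H9. The 6 lines were unedited WT, TWIST1FV, ALX1FV, ALX1FV ALX4-, PRRX1FV and MSX1FNV. In the edited lines the named factor carries a tag through which dTAGV-1, a small molecule that recruits a ubiquitin ligase, removes it, and ALX1FV ALX4- is labelled as lacking ALX4 as well. ALX1, ALX4, PRRX1 and MSX1 are homeodomain factors. Cells of every line, WT included, received 500 nM dTAGV-1 for 0, 3 or 24 h, with 2 replicates per line and time. Both TWIST1FV replicates carry the same clone name, as do both MSX1FNV replicates, so each of these lines may rest on 1 clone. The other edited lines have a different clone in each replicate. The labels record mouse O9-1 chromatin added as a spike-in for WT and TWIST1FV only. TWIST1 itself was profiled with 1 antibody in WT and TWIST1FV at 0 and 3 h and in ALX1FV ALX4- at 0 h (2 replicates each), and in a further hCNCC library. The same antibody was used in the lymphoblast line RS4;11 and in the frontonasal prominence (FNP), maxillary (Mx) and mandibular (Md) prominences, forelimb (FL) and hindlimb (HL) of mouse embryos at E10.5, with 1 library each. HEK293, a human embryonic kidney line, was transfected for 24 h with plasmids for TWIST1 or its variants, with and without ALX4. Unmutated TWIST1 was also given with PRRX1a, PRRX1b, MSX1 or PHOX2A. Further HEK293 cells received NEUROD1, with and without ALX4, or pUC19. Nothing in the labels says that replicates were separate differentiations, so p-values measure the spread between these samples, which may be technical.

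Total counts ranged from 5137169 to 9173063 over the 36 H3K27ac libraries. H3K27ac at the transcript starts of neural crest markers varied widely at 0 h. In CPM (counts scaled to library size with TMM factors) per kb of region, the means over the 12 libraries at 0 h were 165 for ALX4, 117 for TFAP2A, 102 for NR2F1 and 96.4 for TWIST1. The means were 56.8 for PRRX1, 53.5 for ALX1, 45.3 for SOX9, 25.4 for PAX3 (5.53 to 58.8 in single libraries) and 25.2 for MSX1. SOX10, at 2.62 CPM per kb, lay within the range of the markers of other cell types given next. Among markers of other cell types, POU5F1, NANOG and PTPRC had no region at a transcript start, and EPCAM (4.86), CDH1 (2.68), NEUROD1 (1.81), PAX6 (1.69), MYOD1 (0.435) and SOX1 (0.281) were low. In bulk chromatin, fewer cells that carry a mark and less of the mark per cell cannot be told apart.

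TWIST1 bound near all 7 genes in hCNCC. A reference set of 42318 sites was made from the peaks of WT replicate 1 at 0 h that overlapped a peak of replicate 2, and 79 of these sites lay near the genes. TCF4 had 22 of them, ID3 16, TCF12 13, ID1 11, ID2 10, ID4 4 and TCF3 3. The strongest site of each gene but TCF4, by the authors' q value in WT replicate 1, is shown because these are the sites followed across cell types below. They are read from hg38, plus strand, 5′ to 3′, centred on the peak summit of WT replicate 1. Capitals mark the E-boxes searched, which are CAGATG on either strand, CAGCTG, which reads the same on both, and CATATG, which does so too. They also mark homeodomain sites, searched as TAATTA, which is palindromic, or as TAATTG on either strand. The TCF4 site is described without its letters.
TCF3, chr19:1651712-1651812: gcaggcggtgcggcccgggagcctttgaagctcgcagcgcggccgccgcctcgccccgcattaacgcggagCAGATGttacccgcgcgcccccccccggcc
TCF12, chr15:57220359-57220459: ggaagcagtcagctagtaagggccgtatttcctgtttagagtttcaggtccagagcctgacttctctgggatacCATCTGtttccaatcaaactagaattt
ID1, chr20:31596190-31596290: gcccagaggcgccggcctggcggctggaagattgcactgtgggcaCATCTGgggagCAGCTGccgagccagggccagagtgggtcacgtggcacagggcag
ID2, chr2:8656467-8656567: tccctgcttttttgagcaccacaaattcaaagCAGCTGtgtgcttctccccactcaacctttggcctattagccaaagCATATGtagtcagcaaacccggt
ID3, chr1:23560438-23560538: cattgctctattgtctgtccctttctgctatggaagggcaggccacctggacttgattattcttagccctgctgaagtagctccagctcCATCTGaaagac
ID4, chr6:19804677-19804777: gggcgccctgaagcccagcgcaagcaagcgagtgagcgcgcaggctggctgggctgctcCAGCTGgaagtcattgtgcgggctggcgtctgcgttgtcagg

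The TCF4 site, in an intron 702 bp from an annotated TCF4 start, held a homeodomain site 4 bp from a CATATG E-box. It was the only one of the 79 sites with that arrangement, which 2.71% of all 42318 sites had. The ID1 site, 8576 bp from the gene in intergenic sequence, held CATCTG and CAGCTG E-boxes separated by 5 bp. That spacing occurred at 2 of the 79 sites, the other being a weak site of ID3, and at 0.917% of all sites. The TCF3, TCF12 and ID3 sites covered a transcript start of their gene, the ID4 site lay in an exon of the non-coding gene LNC-LBCS 32040 bp away, and the ID2 site was intergenic at 21942 bp. At least 1 E-box lay within the 201 bp summit window of 57 of the 79 sites (72.2%, 95% Wilson interval 61.4 to 80.8), against 67.5% of all sites and 24.3% of windows 1000 bp downstream of all sites. A homeodomain site lay in 15 of the 79 (19.0%, interval 11.9 to 29.0), against 25.3% of all sites. These matches are letters in a window and not measured contacts.

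The ID1 site was the strongest of the 7 in WT. The authors' fold enrichment there was 132 in replicate 1 and 148 in replicate 2, ranking 207 of 59282 and 117 of 49107 peaks. The fold enrichment of the others was 102 and 74.4 for TCF12, 109 and 110 for ID4, 76.7 and 59.4 for TCF4, 73.6 and 87.8 for ID3, 73.3 and 49.2 for TCF3, and 58.7 and 66.6 for ID2. Replicate 2 ranked the same site first for each gene except ID2, where a site covering the ID2 start had a fold enrichment of 47.7 in replicate 1 and 75.2 in replicate 2. All 7 sites were also peaks in both WT libraries at 3 h, in both TWIST1FV libraries at 0 h, in both ALX1FV ALX4- libraries and in the separate hCNCC library.

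Degradation of TWIST1 removed most of these peaks within 3 h. Near the 7 genes, the TWIST1FV lists went from 63 and 55 peaks at 0 h to 6 in each replicate at 3 h. The WT lists went from 101 and 93 to 95 and 83. Of the 0 h peaks near the genes, 9.42% ± 2.10 (SD, n = 2) were overlapped by a 3 h peak of the same replicate in TWIST1FV and 78.9% ± 0.956 (SD, n = 2) in WT. Over all peaks the share was 2.45% and 2.94% in the TWIST1FV replicates and 76.8% and 81.8% in WT, so in TWIST1FV the share kept near the genes (7.94% and 10.9%, on 5 of 63 and 6 of 55 peaks) was above that of all peaks. The groups did not overlap, and the exact permutation test over samples gave its smallest possible value with 2 against 2, p = 0.3333 (two-sided). The peaks left in TWIST1FV were at the strongest sites of TCF12 and TCF4 and at TCF3 in both replicates, at a second TCF12 site in both (8528 bp from a start in replicate 1), at the ID3 start in replicate 1, and at ID4 and an ID1 site in replicate 2. At the TCF12 site the authors' fold enrichment went from 51.2 to 11.0 in replicate 1 and from 40.1 to 14.0 in replicate 2. At the TCF4 site it went from 56.9 to 8.96 and from 42.6 to 5.59. No ID2 peak was listed at 3 h in either TWIST1FV replicate. TWIST1FV thus had fewer peaks near the genes than WT before any dTAGV-1, but not per 1000 peaks of its shorter lists (2.04 ± 0.223 against 1.80 ± 0.134, SD, n = 2 each, exact permutation test, two-sided p = 0.667). ALX1FV ALX4- had 2.22 ± 0.0044 per 1000 (SD, n = 2; exact permutation p = 0.3333 against WT, the smallest possible).

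**Figure D1:**
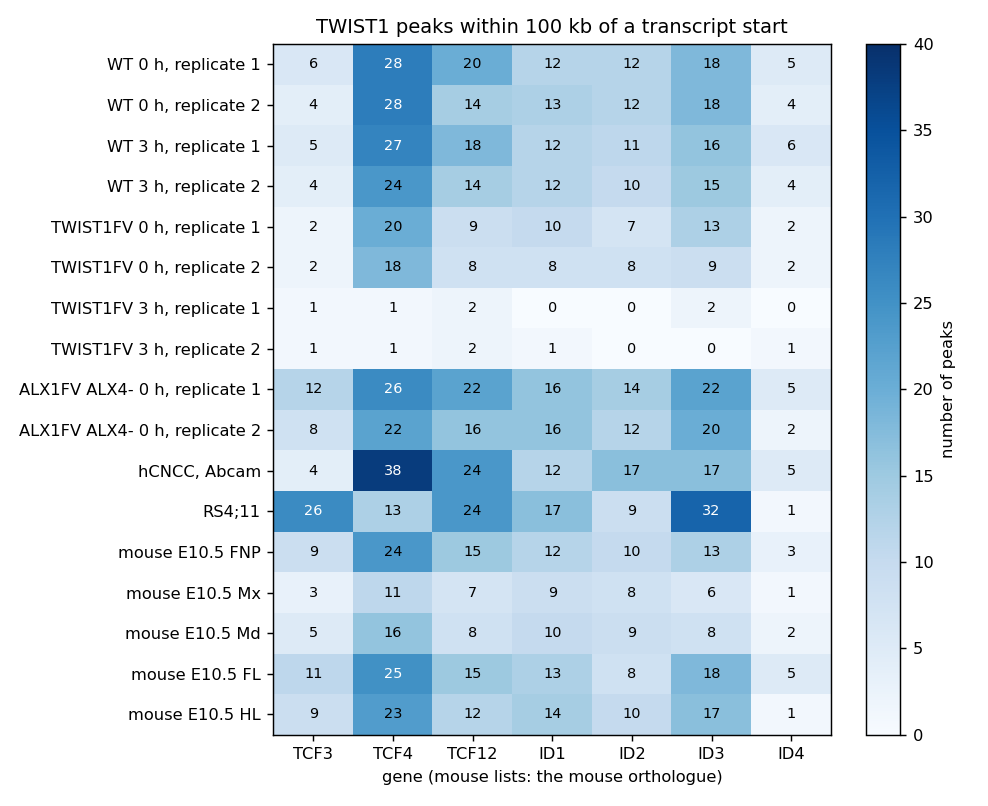
Number of TWIST1 peaks within 100 kb of a transcript start of each gene (columns) in each TWIST1 peak list (rows), with the count printed in the cell and shown by colour. The windows differ in length, from 200.0 kb for ID1 to 635.8 kb for TCF4 in hg38. By number TCF4 leads in WT and in the mouse tissues and ID3 and TCF3 lead in RS4;11, and the 2 TWIST1FV lists at 3 h hold 6 peaks each.

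The distribution over the 7 genes differed in RS4;11, a lymphoblast line. Its single library had 122 peaks near the genes, and TCF3 had 26 of them, against 4 to 6 in the WT and separate hCNCC libraries and 12 and 8 in ALX1FV ALX4-. TCF4 had 13, against 24 to 38 in the former and 26 and 22 in ALX1FV ALX4-. ID3 had 32, against 15 to 18 and 22 and 20. The windows differ in length, and per 100 kb ID3 had more peaks than any other of the 7 genes in RS4;11 (15.97) as in WT at 0 h (8.98 in each replicate, against 4.404 for TCF4). An hCNCC peak here is any TWIST1 peak of either WT library at 0 h or of the separate hCNCC library. Of the 122 RS4;11 peaks, 40 (32.8%, 95% Wilson interval 25.1 to 41.5) overlapped one, against 22.2% of all RS4;11 peaks. The share was 3 of 26 at TCF3 and 16 of 32 at ID3. The strongest ID1 site of hCNCC was also the strongest ID1 peak of RS4;11, with a fold enrichment of 166 and rank 265 of 70826. The strongest hCNCC sites of TCF4, TCF12 and ID4 were not RS4;11 peaks. For ID2 the site shown was not, and the start site that led in replicate 2 was. RS4;11 had its own leading sites, such as a peak at 19:1646580-1649540, 1205 bp from a TCF3 start, with a fold enrichment of 39.6. A homeodomain site was found in 1 of the 122 RS4;11 peaks (0.820%, interval 0.145 to 4.50), against 6.24% of all RS4;11 peaks, and an E-box in 80 (65.6%). RS4;11 and hCNCC differ in library as well as in cell type, with 1 library of RS4;11, so no test was made.

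In the mouse embryo, Twist1 peaks near the 7 genes numbered 86 in FNP, 45 in Mx, 58 in Md, 95 in FL and 86 in HL, in lists of 41893, 17938, 24933, 46082 and 40430 peaks. The share of the list was 2.05 to 2.51 per 1000 in the 5 tissues, and Tcf4, with a window of 539.0 kb against 201.5 kb for Id3, had the largest number of the 7 genes in each (11 to 25). Per 100 kb the order differed, with Id3 first in FNP, FL and HL (6.45, 8.93 and 8.44) and Id1 first in Mx and Md (4.25 and 4.72). Tcf4 had 2.04 in Mx and 2.97 in Md, and 2.04 to 4.64 over the 5 tissues. A mouse peak near the same gene matched the summit sequence of 32 of the 79 human sites, and 20 of these matched in all 5 tissues. The strongest human sites of ID1, TCF12, TCF4 and ID4 matched a peak in all 5. The ID1 site aligned over 200 bp at 85.5% identity with a peak at mm39 2:152570945-152572188 in FNP, which covered an Id1 transcript start. The TCF12 site aligned over 271 bp at 83.4%, and the ID4 site over 171 bp at 87.1%. The TCF4 site, with the E-box and homeodomain pair, had the highest identity of these 4, at 95.1% over 245 bp in FNP. The strongest sites of TCF3 and ID3 and the ID2 site shown matched none, although 5 other ID2 sites and 6 other ID3 sites did. The ID2 start site was one of these, with a match in FL, HL, Md and Mx. In FNP a peak at mm39 12:25147060-25151775 covered an Id2 start, but the sequence around its summit matched another ID2 site. A match needs both the sequence and a peak in the list, so the shorter Mx and Md lists could show fewer.

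HEK293 cells given TWIST1 also had peaks at some of these sites. The lists with TWIST1 or a TWIST1 variant numbered 40, and in some of them ALX4, PRRX1a, PRRX1b, MSX1 or PHOX2A was added. The strongest hCNCC site of ID4 was a peak in all 40, that of ID3 in 36 and those of ID1 and TCF3 in 26 each. That of TCF4 was a peak in 15 and that of TCF12 in 4. The ID2 site shown was a peak in 7 and the ID2 start site in 40. The list from cells given the empty pUC19 plasmid held 463 peaks, of which 0 lay near the genes. At the shares per 1000 given below, a list this short could hold 0 through its length alone. With unmutated V5-TWIST1 the number near the 7 genes per 1000 peaks was 1.58 ± 0.118 with ALX4 and 1.65 ± 0.117 without (SD, n = 3 each; exact permutation test, two-sided p = 0.600), a difference smaller than the spread. The direction differed between replicates, with -0.176, -0.217 and 0.190 per 1000 in replicates 1 to 3. Within that total the genes differed, an observation made after the values were seen. TCF4 and TCF12 together went from 0.263 to 0.748 per 1000 in replicate 1, from 0.356 to 0.604 in replicate 2 and from 0.464 to 0.969 in replicate 3 when ALX4 was added. The 4 ID genes went from 1.25 to 0.748, from 1.25 to 0.798 and from 0.893 to 0.646. TCF3 went from 0.230 to 0.0680, from 0.0890 to 0.0725 and from 0.161 to 0.0923. These are shares of lists that differ in length, at 30471 and 29430, 22465 and 41369, and 56014 and 65005 peaks without and with ALX4. In numbers, TCF4 and TCF12 together went from 8 to 22, from 8 to 25 and from 26 to 63 peaks, and the ID genes from 38 to 22, from 28 to 33 and from 50 to 42. In replicate 2 the ID genes thus had more peaks with ALX4 and a lower share of a longer list. Over the 5 pairs with unmutated TWIST1 (3 V5 pairs, 1 TWIST1-antibody pair and 1 pair with pCAG plasmids), TCF4 and TCF12 had more peaks with ALX4 in 5, and the ID genes and TCF3 had fewer in 4 each. Per 1000 peaks, all 5 of these pairs were higher with ALX4 for TCF4 and TCF12 and lower for the ID genes. Over 18 pairs, which are these 5 and those with loop and single-residue variants, the shares per 1000 went less one way. TCF4 and TCF12 were higher per 1000 with ALX4 in 11 of the 18, and the ID genes were lower in 11. In the same 3 V5 pairs the share of all peaks on chromosome 19, which is gene-rich, went from 5.36% to 3.03%, from 4.90% to 2.72% and from 4.58% to 2.70%. Its part in the result was not tested.

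AP2a, a neural crest factor, had 50 and 47 peaks near the genes with 2 antibodies, and 25 of the 79 TWIST1 sites were peaks in each (31.6%, 95% Wilson interval 22.4 to 42.5), against 21.3% and 23.3% of all 42318 sites. V5 ChIP of the tagged homeodomain factors gave 0 to 4 peaks near the genes, in lists of 1 to 1389 peaks, too few to describe.

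H3K27ac was present at a transcript start of each gene in WT at 0 h. Its level there, in CPM per kb of region, was 129 ± 51.4 for ID3, 119 ± 13.8 for TCF4, 67.3 ± 3.34 for TCF3, 60.2 ± 0.823 for TCF12, 29.5 ± 25.4 for ID2, 18.3 ± 11.3 for ID1 and 11.0 ± 3.66 for ID4 (SD, n = 2). ID3 and TCF4 overlapped in their replicates, so the order of that pair is not set by these data. ID2, ID1 and ID4 each overlapped the others, so their order is not set either. The errors were wide for ID1, ID2 and ID3. At the ID1 start region, WT replicates 1 and 2 had 16.9 and 42.9 CPM at 0 h. At 3 h they had 13.8 and 39.97, and at 24 h 16.8 and 40.8. The TWIST1FV values were 11.6 and 40.6, then 13.6 and 32.9, then 14.0 and 44.7. Replicate 1 was below replicate 2 at all 3 times in both lines at ID1 and ID2, by 2.42- to 4.16-fold, while at TCF4 the ratio of replicate 2 to 1 stayed between 0.849 and 1.15. Across all 174645 regions tested in all lines, the deviation of replicate 1 from replicate 2 in WT correlated with that in TWIST1FV at r = 0.0800, given here as a description.

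**Figure D2:**
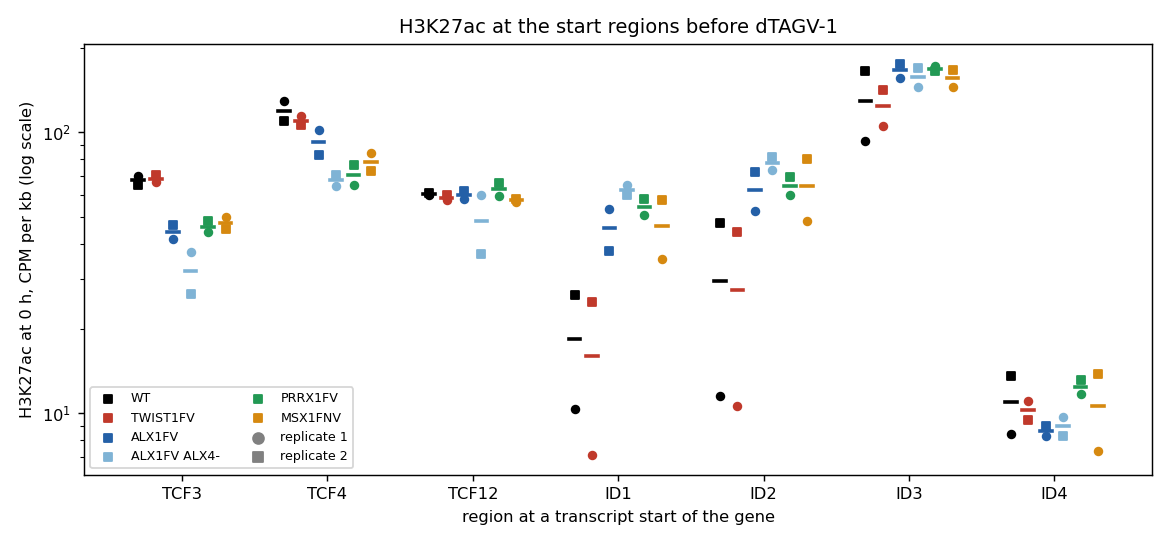
H3K27ac at 0 h of dTAGV-1 at the transcript start region of each gene, in CPM per kb on a log axis. Circles are replicate 1, squares replicate 2, bars the mean of the 2, and colours the 6 lines. ID1 and ID2 are low in replicate 1 of WT and TWIST1FV, and TCF4 and TCF3 are highest in those 2 lines.

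After degradation of TWIST1, regions that rose lay near ID3, and regions that fell lay near 5 of the other genes. For TCF3 this rested on 1 region whose change did not pass the test of its difference from WT. The TCF4 regions from 55225390 and 55251454 did not pass that test at 24 h either, nor did the TCF12 regions from 57218816 and 57248023. Of 211 regions with enough counts to test in TWIST1FV, 5 rose and 6 fell at 3 h, and 11 rose and 12 fell at 24 h (edgeR quasi-likelihood test, FDR under 0.05 over all regions). The 11 regions that rose were all near ID3 under the normalization used. The 12 that fell were near TCF4 (5 of 61 tested), TCF12 (3 of 48), ID2 (2 of 20), TCF3 (1 of 15) and ID1 (1 of 23), with 0 of 5 near ID4. Over all 123361 regions tested, 1.01% rose and 4.28% fell at 3 h, and 4.28% rose and 9.49% fell at 24 h. The 10.9% of regions called near the 7 genes at 24 h is below the 13.8% of all regions. All 11 regions called at 3 h were called again at 24 h, and 12 were called at 24 h alone. Between 3 and 24 h, 0 of the 211 regions passed the test and 12 had an unadjusted p under 0.05, where 0.891% of all regions passed. DESeq2 called 19 regions at 24 h, all among the 23. Scaling by library size alone, which raised the median of all regions by 0.125 on the log2 scale, gave 16 up and 8 down in place of 11 and 12, and 3 of the 16 were near TCF4.

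**Figure D3:**
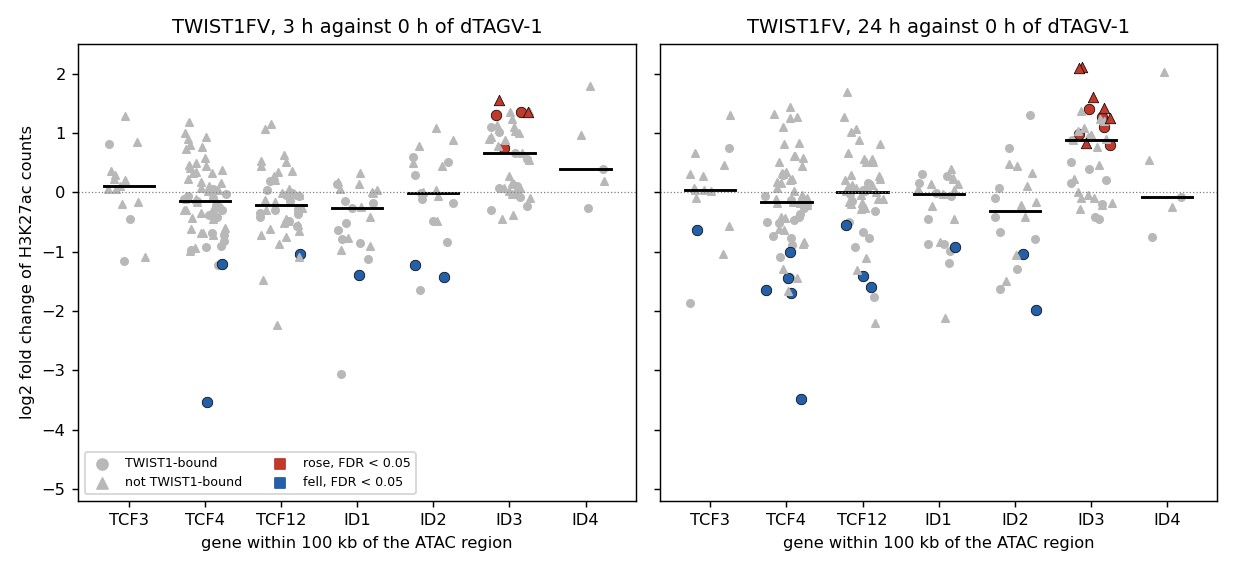
log2 fold change of H3K27ac against 0 h for each tested region near each gene, in TWIST1FV at 3 h (left) and 24 h (right). Circles are TWIST1-bound regions and triangles are not, black bars are medians over a gene's regions, and red and blue mark regions that rose or fell at FDR under 0.05. Red points are all in the ID3 column and blue points are all circles.

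Falls were found at TWIST1-bound regions. A region is called bound here if it overlaps a reference WT site, and 76 of the 266 were (28.6%, against 19.8% of all regions). Among the 76 bound regions 12 fell and 5 rose at 24 h, with a median log2 change of -0.42. Among the 135 tested regions without a site 0 fell and 6 rose, with a median of 0.14. Over all tested regions with a site, 28.9% fell and 2.26% rose (median -0.73), and over all without one 1.07% fell and 5.15% rose (median 0.23). Of the bound regions near the genes, 15.8% fell and 6.58% rose. The difference between these shares and those of all bound regions was not tested.

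Near TCF4 and TCF12, regions at intronic, distal and internal start sites fell. The largest fall of any tested region near the genes was at chr18:55166091-55166591, 62364 bp from the nearest annotated TCF4 start in intergenic sequence. It held 10.4 and 9.38 CPM in TWIST1FV at 0 h, 1.42 and 0.274 at 3 h, and 0.933 and 0.793 at 24 h. WT stayed between 8.27 and 11.1 CPM at all times. The groups did not overlap, and the log2 change was -3.54 ± 0.53 at 3 h and -3.48 ± 0.52 at 24 h (SE; adjusted p = 0.000187 at 24 h). A pair of adjacent regions in a TCF4 intron, from 55243917 and from 55244426, fell by 1.70 ± 0.33 and 1.64 ± 0.32 on the log2 scale at 24 h. The first held 21.3 and 14.1 CPM at 0 h and 6.30 and 4.50 at 24 h. A region at chr18:55251454-55252429 in a TCF4 intron fell by 1.00 ± 0.32 (adjusted p = 0.0429). It was already at 15.4 and 22.8 CPM in TWIST1FV at 0 h, where WT had 45.4 and 43.4. The fifth, at 55225390, fell by 1.45 ± 0.45. At the regions from 55251454 and 55225390 the difference in change from WT at 24 h did not pass (edgeR adjusted p = 0.202 and 0.162). DESeq2 called 3 regions near TCF4 as falling at 24 h, in place of 5.

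In TCF12, the intronic region chr15:57098898-57099398 fell by 1.04 ± 0.26 at 3 h and 1.59 ± 0.27 at 24 h on the log2 scale (SE; adjusted p = 0.000477 at 24 h). Its level went from 28.7 and 22.4 CPM to 8.40 and 8.46 at 24 h, while WT held 26.02 to 30.03 throughout. The 3 h call was lost without replicate 1 at 0 h or at 3 h, and the 24 h call was not lost. Regions at 2 internal TCF12 starts, from 57218816 and 57248023, fell by 0.55 ± 0.17 and 1.41 ± 0.41. The second was not called with DESeq2 (adjusted p = 0.0602) or on leaving out replicate 1 at 0 h or either 24 h library. The first overlaps the strongest TCF12 peak. At neither of these starts did the difference in change from WT at 24 h pass (edgeR adjusted p = 0.0995 and 0.217). DESeq2 called 1 region near TCF12 as falling at 24 h, in place of 3. TCF3, whose products are the classical E-proteins E12 and E47, fell at its start region chr19:1651118-1652327 from 80.3 and 85.1 CPM to 66.0 and 55.8 at 3 h and 60.2 and 46.3 at 24 h. This was a log2 change of -0.63 ± 0.18 (SE; adjusted p = 0.0239), and WT went from 84.3 and 78.6 to 71.1 and 69.7. The difference in change from WT did not pass, at -0.42 ± 0.22 at 24 h (SE; edgeR adjusted p = 0.376) and -0.10 ± 0.22 at 3 h (0.940). The TCF3 call was lost with library-size scaling (edgeR adjusted p = 0.0720) and on leaving out either 0 h library or replicate 2 at 24 h. The start regions of TCF4 (-0.07 ± 0.17) and TCF12 (-0.05 ± 0.15) did not pass the test at 24 h.

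The sequence under the TWIST1 summit is given in the same form for the region near ID1 called as falling and for the called TCF12 region that fell most. This sets a site with the searched E-boxes beside one without.
ID1, chr20:31544392-31544492: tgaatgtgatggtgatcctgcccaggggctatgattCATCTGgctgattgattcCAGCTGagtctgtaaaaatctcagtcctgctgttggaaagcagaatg
TCF12, chr15:57099029-57099129: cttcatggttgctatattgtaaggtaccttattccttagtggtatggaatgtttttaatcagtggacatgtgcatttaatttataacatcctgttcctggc

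The site under the TCF4 region that fell most held CATATG 38 bp from its summit. The ID1 site held CATCTG and CAGCTG, and the TCF12 site held none of the E-boxes searched within the 101 bp shown.

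Among the ID genes, regions near ID1 and ID2 fell. The ID1 region chr20:31544143-31544643 lies in an intron of HM13, 385 bp from a transcript start of HM13 and 60640 bp from the ID1 start. It went from 34.8 and 46.1 CPM at 0 h to 17.3 and 13.7 at 3 h and 24.5 and 18.0 at 24 h, a log2 change of -1.39 ± 0.25 at 3 h and -0.92 ± 0.24 at 24 h (SE; adjusted p = 0.0145 at 24 h). WT held 37.9 to 48.0 CPM. The 24 h call was lost without replicate 2 at 0 h or at 24 h. The ID2 region chr2:8656264-8656764 holds the ID2 site shown above. It went from 10.1 and 14.6 CPM to 5.68 and 3.57 at 3 h and 2.80 and 3.44 at 24 h, a log2 change of -1.98 ± 0.38 (SE; adjusted p = 0.00162). WT ranged from 6.51 to 14.9 CPM. A second ID2 region lies in an intron of KIDINS220, 1682 bp from a transcript start of that gene and 70854 bp from an ID2 start. It went from 31.6 and 30.9 CPM to 15.9 and 14.5 at 24 h, a log2 change of -1.03 ± 0.24 that did not pass without replicate 2 at 24 h. The start regions of ID1 (0.16 ± 0.50), ID2 (0.75 ± 0.57) and ID4 (-0.25 ± 0.33) did not pass the test, and at ID1 and ID2 replicates differed by more than the times did. The ID2 start region passed as a rise without replicate 2 at 0 h (2.12) or without replicate 1 at 24 h (1.47).

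ID3 went the other way. Of 39 tested regions near ID3, 31 were above 0 at 3 h and 29 at 24 h. The median log2 change was 0.67 at 3 h and 0.88 at 24 h, where that of all tested regions was 0.023 and 0.033. The 11 regions that rose lay between chr1:23553821 and chr1:23600872, from 4754 bp downstream of the ID3 start to 40871 bp upstream. Only 4 of them have ID3 as the nearest transcript start, and others lie in or near MDS2 and the unnamed gene ENSG00000285802. The largest relative gains were at 2 regions without a TWIST1 site. chr1:23600372-23600872 went from 6.52 and 4.14 CPM at 0 h to 14.8 and 12.3 at 3 h, and reached 22.0 and 23.1 at 24 h. The TWIST1FV groups did not overlap, WT stayed between 4.18 and 7.97, and the log2 change was 2.09 ± 0.30 (SE; adjusted p = 0.000118). chr1:23556039-23556539, 2536 bp from ID3, went from 3.26 and 9.26 CPM to 9.65 and 18.4 and then 23.3 and 31.5, a log2 change of 2.10 ± 0.39 (SE; adjusted p = 0.00117). The bound region chr1:23594873-23595373, also an AP2a peak, went from 8.30 and 9.26 CPM to 26.1 and 20.4, a log2 change of 1.41 ± 0.26 (SE; adjusted p = 0.00106). At higher levels, chr1:23553821-23554321 went from 32.9 and 55.9 CPM to 78.2 and 98.1, and chr1:23598399-23598899 from 41.9 and 36.3 to 67.4 and 67.8. WT changed by 0.73, 0.52, 0.095 and 0.32 on the log2 scale at 24 h at the regions from 23556039, 23594873, 23553821 and 23598399. The difference in change from WT at 24 h did not pass at any of them (edgeR adjusted p = 0.116, 0.271, 0.0542 and 0.416). The ID3 start region itself did not pass the test, at -0.41 ± 0.19 on the log2 scale (adjusted p = 0.204). Without replicate 1 of TWIST1FV at 0 h, 6 regions near ID3 rose at 24 h in place of 11, and without replicate 1 at 24 h 7 did. Over the 7 genes at 3 h, 2 regions rose without replicate 1 at 0 h and 9 without replicate 2 at 3 h, in place of 5.

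**Figure D4:**
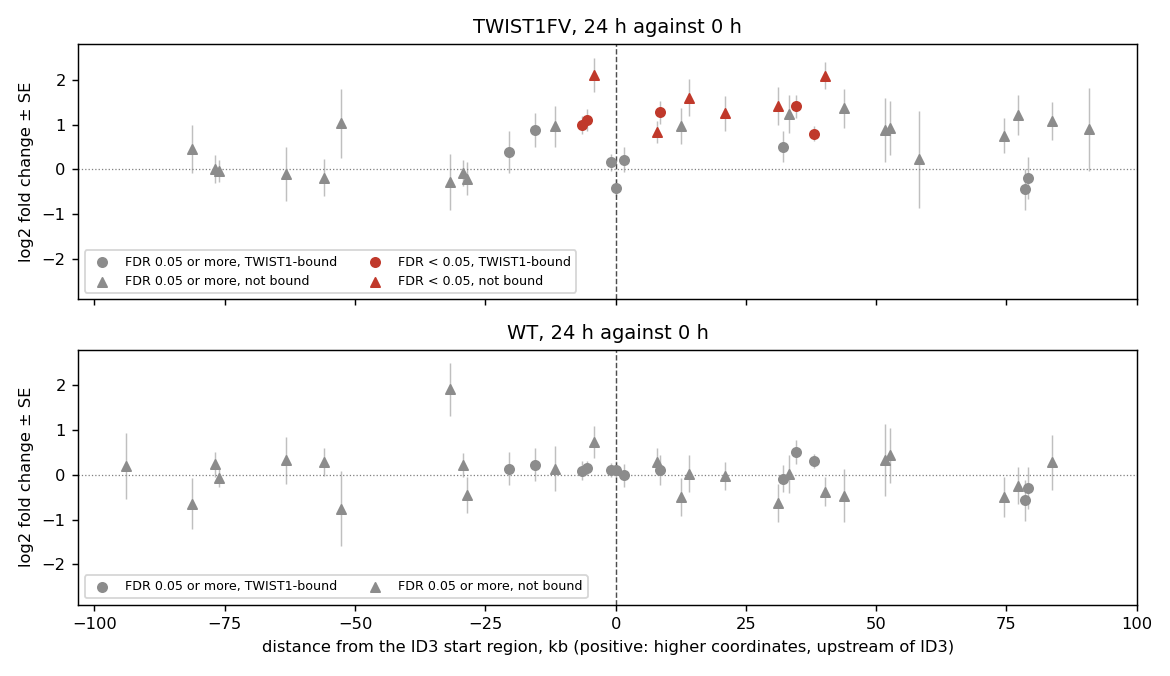
log2 fold change of H3K27ac at 24 h against 0 h for each tested region within 100 kb of ID3, by distance in kb from the ID3 start region (dashed line), in TWIST1FV (top) and WT (bottom). Bars are SE, circles are TWIST1-bound regions, triangles are not, and red marks FDR under 0.05. The 11 red regions lie on both sides of a start region that is itself below 0.

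In the other 5 lines, 0 of the regions near the 7 genes passed the test at 3 or 24 h. That was 0 of 205 in WT, with 6 at an unadjusted p under 0.05 at each time. In ALX1FV it was 0 of 206, with 4 and 2 unadjusted. In ALX1FV ALX4- it was 0 of 213, with 10 and 14. In PRRX1FV it was 0 of 200, with 9 and 8, and in MSX1FNV 0 of 200, with 6 and 7. DESeq2 called 0 in each of these 10 comparisons as well. Over all regions, the percentage called was 0 in WT, ALX1FV, ALX1FV ALX4- and PRRX1FV at 3 h and 0 in WT and ALX1FV at 24 h. It was 0.00179 in MSX1FNV at 3 h, and 0.0279 in ALX1FV ALX4-, 0.000827 in PRRX1FV and 0.00448 in MSX1FNV at 24 h. The self-test at this design used counts simulated from TWIST1FV, with changes set in regions of higher count. It recovered 43 of 50 regions raised 4-fold, 30 of 50 lowered 4-fold, and 4 of 50 in each direction at 2-fold. Some 4-fold falls and most smaller changes could thus be missed.

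The change in TWIST1FV also differed from that in WT when the difference was tested in a fit of all 36 libraries. At 24 h the change was higher in TWIST1FV at 3 of 255 regions near the genes, all near ID3, and lower at 8. At 3 h it was higher at 2, both near ID3, and lower at 4. Over all regions 1.16% were higher and 4.92% lower at 24 h, and 0.253% higher and 2.1% lower at 3 h. The 8 regions lower at 24 h were 3 near TCF4, 2 near ID1, 2 near ID2 and 1 near TCF12. The region from 55166091 near TCF4 had the largest difference, -3.45 on the log2 scale. One of the ID1 regions, chr20:31606360-31606860 in an ID1 untranslated region, differed by -1.26 although it did not pass within TWIST1FV (-0.997, adjusted p = 0.0818). Against the other edited lines the change at 24 h differed at 10 regions for ALX1FV, 12 for ALX1FV ALX4-, 12 for PRRX1FV and 12 for MSX1FNV, where 5.65%, 4.8%, 5.84% and 5.58% of all regions differed. The 3 regions higher at 24 h became 1 without TWIST1FV replicate 1 or WT replicate 2 at 0 h or WT replicate 1 at 24 h, 2 without TWIST1FV replicate 2 at 24 h, 7 without TWIST1FV replicate 2 at 0 h and 6 without WT replicate 2 at 24 h. The 2 higher at 3 h became 0 without WT replicate 1 at 3 h and 1 without replicate 1 of WT at 0 h or of TWIST1FV at 0 or 3 h. The contrasts with the edited lines share the TWIST1FV libraries. The ID1 region in HM13, the ID2 region from 8656264, the TCF12 region from 57098898, the TCF4 regions from 55166091, 55243917 and 55244426 and the ID3 regions from 23556039 and 23600372 passed against each of the 4. The ID3 region from 23556039 did not pass against WT.

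**Figure D5:**
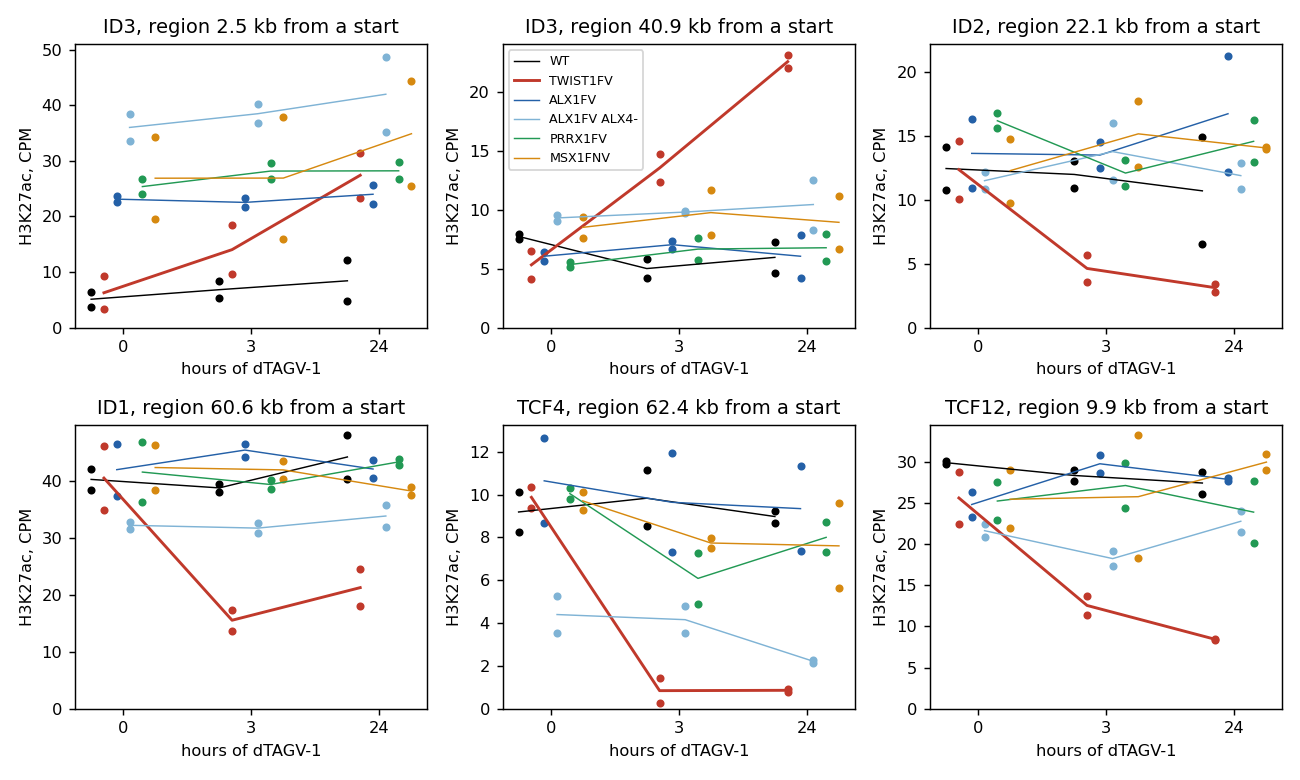
H3K27ac in CPM at 6 regions over hours of dTAGV-1, in all 6 lines. Points are single replicates and lines join the means of 2. TWIST1FV (red) leaves the other lines at each region except the ID3 region 2.5 kb from its start, where it rises from the WT level into the range of the 4 homeodomain lines.

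Before dTAGV-1, the lines with tagged homeodomain factors differed from WT near several of the genes. At 0 h, 0 of 255 regions passed the test between TWIST1FV and WT (0.0744% of all regions), with 6 at an unadjusted p under 0.05. The TCF4 region from 55251454 came nearest, with a log2 difference of -1.21 ± 0.29 (SE; edgeR adjusted p = 0.0853), and passed without the filter on low counts (0.0435). Of the same 255 regions, 4 passed for ALX1FV, 25 for ALX1FV ALX4-, 15 for PRRX1FV and 12 for MSX1FNV. The shares of all regions that passed were 0.412%, 8.47%, 2.65% and 2.6% in the same order. Whether the shares near the genes differ from these was not tested. Regions at ID1 were among those that passed. The ID1 start region had 16.9 and 42.9 CPM in WT, 11.6 and 40.6 in TWIST1FV, 87.0 and 61.4 in ALX1FV, 106 and 97.3 in ALX1FV ALX4-, 82.5 and 94.1 in PRRX1FV, and 57.5 and 93.2 in MSX1FNV. WT and TWIST1FV lay below every library of the 4 lines. The log2 difference from WT was 1.77 ± 0.37 in ALX1FV ALX4-, 1.57 ± 0.37 in PRRX1FV and 1.35 ± 0.37 in MSX1FNV (SE). Without WT replicate 1, which is the low library, these fell to 1.27, 1.04 and 0.81 and none of the 3 passed. The PRRX1FV call was also lost without PRRX1FV replicate 2 (edgeR adjusted p = 0.0931), and the MSX1FNV call without MSX1FNV replicate 2 (0.442). The region in the ID1 untranslated region had 7.27 and 6.44 CPM in WT, 15.7 and 15.5 in ALX1FV, 29.8 and 32.4 in ALX1FV ALX4-, 18.8 and 26.3 in PRRX1FV, and 14.8 and 23.2 in MSX1FNV. It passed in all 4 lines.

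The region 2536 bp from ID3 that rose after TWIST1 loss was higher in the same 4 lines at 0 h. It had 3.76 and 6.44 CPM in WT and 3.26 and 9.26 in TWIST1FV, against 23.7 and 22.5 in ALX1FV, 33.6 and 38.4 in ALX1FV ALX4-, 24.0 and 26.7 in PRRX1FV, and 19.5 and 34.2 in MSX1FNV. The groups did not overlap, and the log2 difference from WT was 2.196 ± 0.36, 2.84 ± 0.35, 2.33 ± 0.35 and 2.43 ± 0.35 (SE). At 24 h TWIST1FV, with 23.3 and 31.5, stood within the range of these lines.

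Start regions of TCF4 and TCF3 and a region of TCF12 were lower in some of those lines, while other regions were higher. In ALX1FV ALX4-, 3 TCF12 regions were higher than in WT, from 56886323 (0.99 on the log2 scale), 56890681 (2.11) and 56957714 (2.34). A TCF4 region from 55509588, 596 bp from a TCF4 start, was higher in MSX1FNV (2.75). At TCF4, the start region had 64.7 and 54.9 CPM in WT, 57.2 and 53.1 in TWIST1FV, and 32.3 to 42.1 in ALX1FV ALX4-, PRRX1FV and MSX1FNV, with log2 differences of -0.83 ± 0.16, -0.76 ± 0.16 and -0.61 ± 0.16 (SE). ALX1FV, with 51.2 and 41.6, did not pass. Without WT replicate 1 only ALX1FV ALX4- passed at the TCF4 start (edgeR adjusted p = 0.0309). The PRRX1FV call there was also lost without PRRX1FV replicate 1 (edgeR adjusted p = 0.127), and the MSX1FNV call without MSX1FNV replicate 2 (0.313) or with scaling by library size alone (0.0875). At TCF3 the start region was lower in ALX1FV ALX4- (45.4 and 32.2 CPM, log2 difference -1.07 ± 0.16) and PRRX1FV (53.4 and 58.3, -0.55 ± 0.16), where WT had 84.3 and 78.6, and the PRRX1FV call was lost on leaving out any 1 of the 4 libraries compared (edgeR adjusted p from 0.118 to 0.346) and with scaling by library size alone (0.181). A TCF12 intronic region at chr15:57220136-57220636, which holds the summit of the strongest TCF12 site, had 37.1 and 44.3 CPM in WT and 15.7 to 24.0 in the 4 lines. Its log2 difference ran from -0.78 ± 0.19 in ALX1FV to -1.23 ± 0.20 in PRRX1FV. Counts called without WT replicate 1 were 0 for ALX1FV, 10 for ALX1FV ALX4-, 6 for PRRX1FV and 5 for MSX1FNV. Leaving out other libraries also lowered them, to 1 (replicate 1) and 2 (replicate 2) for ALX1FV, 16 (replicate 1) for ALX1FV ALX4-, 8 (replicate 1) and 7 (replicate 2) for PRRX1FV, and 3 (replicate 2) for MSX1FNV. Line, clone, differentiation and the labelled spike-in cannot be told apart in these differences.

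Other genes of the pathway were read at their start regions, from lists chosen with earlier results of these data known. Of 17 BMP pathway genes, which include ligands, receptors and SMADs, 0 of the 17 tested passed in TWIST1FV at either time, with a median log2 change of 0.11 at 3 h and -0.028 at 24 h. Of 17 further bHLH genes, 7 had enough counts to test. None passed at 3 h, and 2 rose at 24 h. TWIST1 itself rose by 0.88 ± 0.21 on the log2 scale (SE; adjusted p = 0.00973, and not called without replicate 1 at 0 h or replicate 2 at 24 h). HEY2, a Notch target and bHLH repressor, rose by 1.69 ± 0.31 (SE; adjusted p = 0.00128). In WT 0 of either list passed. Of 13 tested markers of cell identity, MSX1 fell (-1.11) and the epithelial genes CDH1 (1.41) and EPCAM (0.99) rose at 24 h. Their part in the results above was not tested.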

How the data were processed

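The members and gene lists were chosen with earlier results of these data known. H3K27ac counts per ATAC-seq region were used as the authors deposited them (reads per library over a shared hg38 region set, aligned to hg38 with mm39 per the labels). At least 76.7% of counts of 20 or more were even, so halved counts were an alternative. Peak lists were used as the authors deposited them, with a score, a fold enrichment and −log10 p and q per peak. The submitters' processing notes name Bowtie2 2.4.1, SAMtools 1.10, MACS2 2.2.7.1 and deepTools 3.5.0. Peak lists were one per sample. The control behind each peak is not given in the sources used here.

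Transcript starts came from GENCODE 44 (hg38) and M39 (mm39). Mouse chromosome 19 was not analysed here. Counts were tested with edgeR 4.0.16 in R 4.3.3 (filterByExpr, TMM, quasi-likelihood test), in one fit of 6 libraries per line and one of all 36 for contrasts between lines, with Benjamini-Hochberg adjustment over all regions tested and a threshold of 0.05. SE is the log2 change over the square root of F. CPM used the TMM sizes of the fit of 36. Peaks overlapped if they shared 1 bp. Motifs were searched in 201 bp around summits, and mouse matches with BLASTN 2.17.0 (301 bp, at least 60 bp aligned). Intervals are 95% Wilson intervals and cover counting error only. On simulated counts at the TWIST1FV design, 43 of 50 regions raised 4-fold, 30 of 50 lowered 4-fold, and 4 of 50 in each direction at 2-fold were called, with 3 of 109366 unchanged regions. Alternatives were DESeq2 1.42.0, library size alone, no filter, halved counts, a replicate block, a 50 kb window, stricter peaks and each library left out.

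Regions named by rule were each gene's start region, up to 2 called regions per gene and direction at 24 h, each gene's strongest TWIST1 site and list genes called at 24 h. Other regions named were chosen after their values were seen. Replicate numbers mark a clone in ALX1FV, PRRX1FV and ALX1FV ALX4- per the labels. Same-numbered libraries there deviated together at r = 0.253 to 0.266, 0.0189 to 0.0216 and 0.0273 to 0.0354. One of the marker genes examined is not reported here.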

Additional observations from a re-analysis of the deposited data

Results flagged for a closer look

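The change in H3K27ac after dTAGV-1 differed between TWIST1FV and WT at 11 regions near the 7 genes at 24 h and 6 at 3 h (edgeR, interaction in the fit of 36 libraries, FDR under 0.05). The shares of all regions were 1.16% higher and 4.92% lower at 24 h, and 0.253% higher and 2.1% lower at 3 h. At 24 h the log2 difference was -3.45, -1.51 and -1.48 at the TCF4 regions from 55166091, 55243917 and 55244426, and -1.47 at the TCF12 region from 57098898. Near ID1 it was -1.06 at the region in HM13 and -1.26 at the one from 31606360, and near ID2 -1.77 from 8656264 and -1.16 from 8753634. Near ID3 it was 0.96, 2.05 and 2.47 at the regions from 23554855, 23591463 and 23600372. At 3 h the differences were -3.63 (TCF4, 55166091), -1.33 (ID1, 31544143), -1.65 (ID1, 31606360), -1.33 (ID2, 8753634), 1.81 (ID3, 23581165) and 1.98 (ID3, 23600372). Against the lines with tagged homeodomain factors, the change at 24 h differed at 10 regions for ALX1FV and at 12 each for ALX1FV ALX4- (12), PRRX1FV (12) and MSX1FNV (12). For these lines in the same order, 5.65%, 4.8%, 5.84% and 5.58% of all regions differed.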

How the results depend on the processing

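Of 324 recalculated changes at the regions named by rule, 296 kept direction and side of the threshold, 20 lost the call, 8 gained it and 0 reversed. With the replicate block, where in WT, TWIST1FV and MSX1FNV samples share only a number (r from 0.0381 to 0.0434, 0.0751 to 0.138 and 0.0844 to 0.0975), TWIST1FV had 13 regions up and 11 down at 3 h and 18 up and 20 down at 24 h, of which 4 up lay outside ID3 and 1 down was the ID3 start, and 2 changed from 3 to 24 h. Under the same block the TWIST1FV minus WT differences numbered 8 higher and 8 lower at 3 h and 10 higher and 15 lower at 24 h. Those from ALX1FV, ALX1FV ALX4-, PRRX1FV and MSX1FNV numbered 28, 21, 20 and 23. The block changed no other count past 1.5 times. Halved counts gave 17 up at 24 h, 4 outside ID3, and 6 higher than in WT. Library size alone gave 3 up outside ID3 and 5 higher than in WT. Without a filter 3 rose at 3 h, and 1 differed between TWIST1FV and WT at 0 h. A 50 kb window gave 3 down at 3 h, and 1 and 5 lower than in WT at 3 and 24 h. Peaks with −log10 q of at least 5 gave a kept share of -72.3 points against WT and a HEK293 difference of -0.191 per 1000, which was 0.0826 at 50 kb and -0.500 in the 2000 strongest peaks. The causes were not tested.

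Leaving out 1 library at a time gave 2 to 9 up and 4 to 6 down at 3 h, and 6 to 11 up and 8 to 10 down at 24 h in TWIST1FV. It gave 0 to 2 up outside ID3, 0 to 1 down without a TWIST1 site and 0 to 1 between 3 and 24 h. WT had 0 to 1 at each time and ALX1FV ALX4- 0 to 1 at 24 h. Against WT, 0 to 3 were higher and 3 to 5 lower at 3 h, and 1 to 7 higher and 6 to 8 lower at 24 h. Against ALX1FV it was 8 to 13, against ALX1FV ALX4- 8 to 11, and against PRRX1FV and MSX1FNV 8 to 12 each. At 0 h against WT it was 0 to 3 for ALX1FV, 10 to 25 for ALX1FV ALX4-, 6 to 17 for PRRX1FV and 3 to 13 for MSX1FNV. The kept share differed by -71.0 to -68.0 points. Peaks per 1000 differed by 0.0830 to 0.398 (TWIST1FV), 0.321 to 0.512 (ALX1FV ALX4-) and -0.134 to -0.0142 (HEK293).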
